A study of Drosophila melanogaster with 3 samples.

Results

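Binding of the fruit fly transcription factor Knirps was mapped at 9 genes grouped here as regulators of the embryonic gut and endoderm. They are fkh, bowl, drm, lin, byn, cad, srp, GATAe and grn. The genes were chosen by name. The window of each gene was its body with 10 kb on either side, and a deposited peak was counted when its summit, the position of its highest point, lay in that window. All 9 genes were found among the 13945 protein-coding genes of the 6 chromosome arms used. Their windows held 35 distinct summits of the 7129 in the optimal peak list.

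The samples were whole Drosophila melanogaster embryos of both sexes, aged 0 to 14 h, from a transgenic strain that stably expresses Knirps with GFP (green fluorescent protein) fused to its C-terminal end. Chromatin immunoprecipitation with sequencing (ChIP-seq) was performed with an antibody against GFP on 3 biological replicates, which form 1 group. The labels conflict here, as their antibody field names kni itself. The text follows the description, and capture of untagged Knirps was not tested. No second genotype, treatment or age was compared, so no difference between conditions could be tested. No peaks of untagged embryos or of input DNA were used here. How the transgene is expressed, and in how many copies, is not stated in the labels. Each sample mixed all tissues and ages, so a site bound strongly in a few cells and a site bound weakly in many cannot be told apart.

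The gut of the fly embryo forms from endoderm, which gives the midgut, and from ectoderm at both ends, which gives the foregut and the hindgut. GATA factors, zinc-finger proteins that bind the bases GATA, specify the endoderm, while the forkhead protein Fkh, the T-box protein Brachyenteron (byn) and the homeobox protein Caudal (cad) act in the hindgut. In the foregut and hindgut the product of lin, Lines, binds and inactivates the zinc-finger protein Bowl, and the small related protein Drumstick (drm) relieves Bowl from Lines. Knirps is a zinc-finger repressor of the nuclear receptor family, best known for segmentation of the trunk and for branching of the trachea.

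The peak lists came in 3 kinds. The optimal list held 7129 peaks, which are the 7129 strongest of the pooled list, and the pooled list and each replicate list held 30000. The deposited signal value, the strength of a peak on a scale that the authors did not state, was at least 188 in the optimal list, with a median of 292. It was used only to rank peaks within a list. The lists hold no read counts, so the depth of each replicate is unknown.

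An optimal summit was present for 8 of the 9 genes, with lin the exception. Among all protein-coding genes 59.8% had one in a window of the same kind, so presence in such a window is common. In the gene body alone 6 of the 9 genes had one, against 14.7% of all protein-coding genes. Gene length was not allowed for in these shares. In the replicates, among the 7129 strongest peaks of each list, 8, 8 and 7 of the 9 genes had a summit. The number of distinct summits in the 9 windows in replicates 1 to 3 was 34, 38 and 35, or on average 35.67 ± 2.08 (SD, n = 3). The median gene of the 9 held 3 optimal summits in a window of median length 30.0 kb, against a median of 1 in 22.2 kb over all protein-coding genes. The windows of the 9 genes were thus longer, and per 10 kb their median was 1.24 summits, against 0.44 over all genes. The strongest summit of a gene had a median signal value of 354 over the 8 genes with one, against 389 over all 8341 genes with one.

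**Figure D1:**
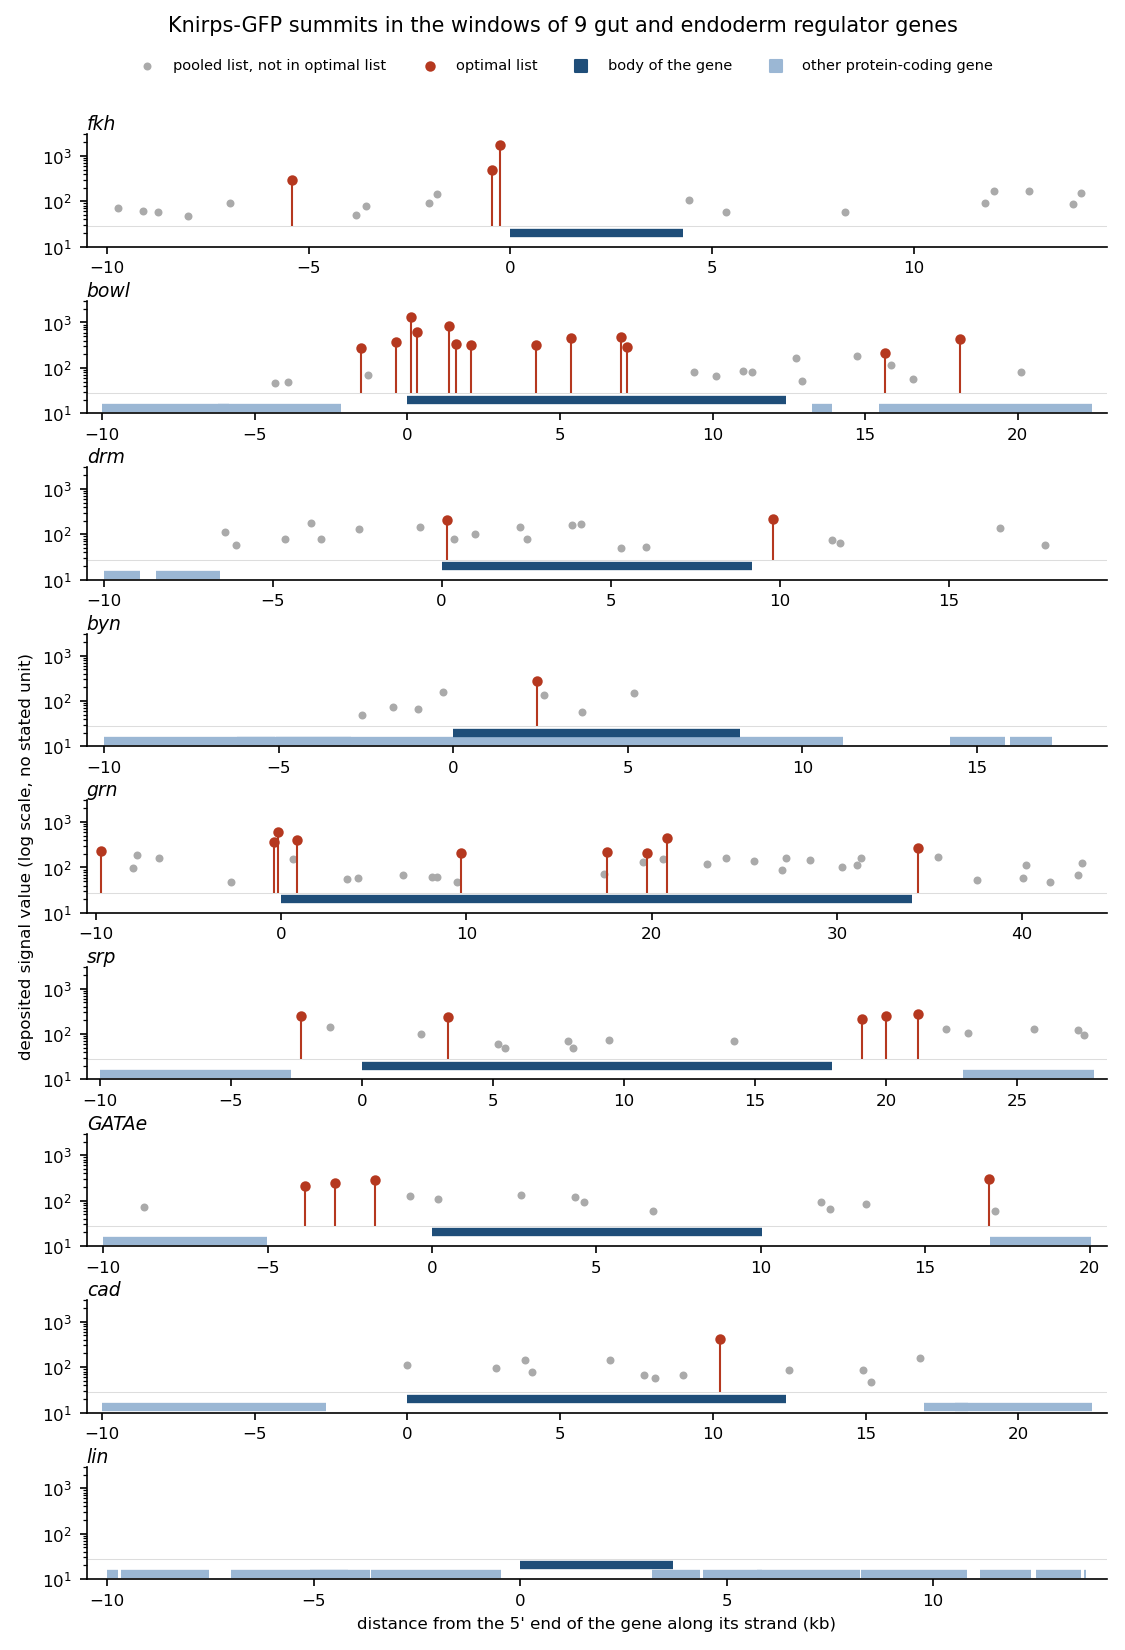
Summits in the windows of the 9 genes, with the distance in kb from the 5' end of the gene along its strand on the x axis and the deposited signal value on a log y axis; red points are summits of the optimal list, grey points are summits of the pooled list only, the dark bar is the body of the gene and the light bars are other protein-coding genes. Of the 13 optimal summits in the bowl window, 11 lie between 1504 bp upstream and 7209 bp downstream of its 5' end. The others lie past its 3' end. The strongest summit of fkh stands 247 bp upstream of its start, and the lin window holds no summit of either list.

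The counts were uneven among the genes. In the strongest peaks of the replicates, bowl held 11, 13 and 14 summits and grn held 8 in each. The counts were 4, 3 and 5 for fkh. They were 5, 5 and 3 for srp and 4, 4 and 3 for GATAe, its neighbour. In number, the replicates of bowl lay above those of grn, and those of grn above every other gene, without overlap. The ranges of srp, fkh, GATAe and drm (2, 5 and 1) overlapped each other. The counts of cad were 2, 2 and 3, overlapping those 4, and those of byn were 1, 1 and 0, below cad but overlapping drm. The 3 replicates of lin were at 0, which byn reached in replicate 3. These counts do not allow for window length, which ran from 23.7 kb (lin) to 54.1 kb (grn). Per 10 kb of window the optimal summits were 4.01 at bowl and 1.66 at grn. They were 1.33 at GATAe, 1.32 at srp, 1.24 at fkh and at most 0.69 at the other genes.

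**Figure D2:**
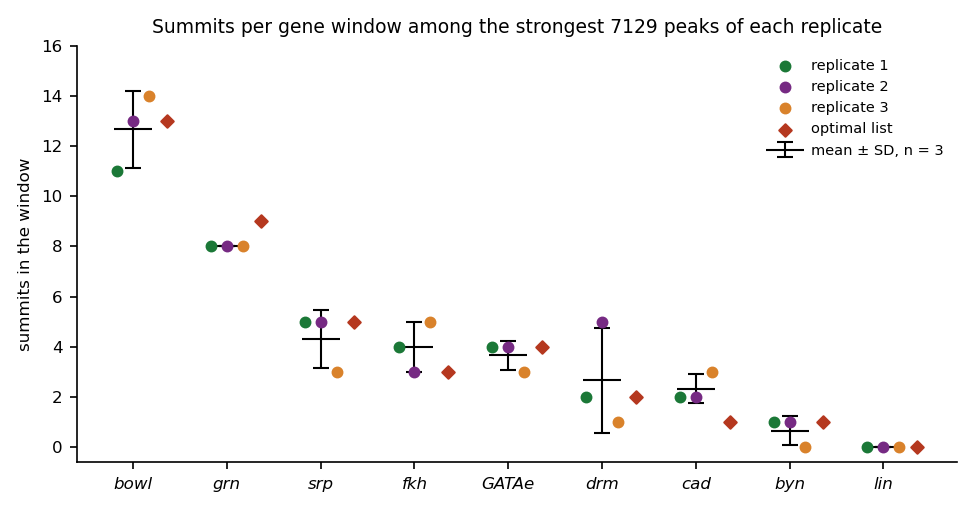
Number of summits in each gene window among the 7129 strongest peaks of each replicate (coloured points) with the mean and SD of the 3 replicates (bars), and in the optimal list (red diamonds). The replicates of bowl lie between 11 and 14, those of grn at 8, and those of the other genes at 5 or below.

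Sequences of 201 bases, each centred on a summit, are shown for 5 loci because they hold the strongest summit clear of exons at fkh, bowl, grn and cad and the strongest summit that srp and GATAe share. They are the plus strand of Release 6 of the genome (dm6), from RefSeq's copy of the assembly. The fkh site is chr3R:28585411-28585611, the bowl site chr2L:3772976-3773176, the grn site chr3R:8181540-8181740, the cad site chr2L:20780857-20781057 and the site between srp and GATAe chr3R:16007285-16007485. Capitals mark any of 8 short words searched on either strand, which are given with their results further on.
fkh: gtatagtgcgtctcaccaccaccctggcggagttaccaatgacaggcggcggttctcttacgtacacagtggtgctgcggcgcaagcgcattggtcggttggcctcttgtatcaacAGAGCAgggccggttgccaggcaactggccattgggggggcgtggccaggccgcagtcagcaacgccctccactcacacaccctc
bowl: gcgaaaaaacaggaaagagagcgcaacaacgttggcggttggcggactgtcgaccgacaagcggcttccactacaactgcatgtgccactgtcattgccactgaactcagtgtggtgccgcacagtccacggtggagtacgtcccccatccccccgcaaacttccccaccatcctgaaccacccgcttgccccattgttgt
grn: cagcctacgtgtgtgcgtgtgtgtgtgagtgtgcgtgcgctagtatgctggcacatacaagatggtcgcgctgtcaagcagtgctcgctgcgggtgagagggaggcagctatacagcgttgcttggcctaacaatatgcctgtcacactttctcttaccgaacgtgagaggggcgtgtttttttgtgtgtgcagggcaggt
cad: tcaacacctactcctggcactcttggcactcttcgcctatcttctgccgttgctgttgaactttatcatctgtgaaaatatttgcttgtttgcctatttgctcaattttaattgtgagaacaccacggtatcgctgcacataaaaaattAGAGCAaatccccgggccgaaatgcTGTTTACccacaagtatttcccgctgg
srp and GATAe: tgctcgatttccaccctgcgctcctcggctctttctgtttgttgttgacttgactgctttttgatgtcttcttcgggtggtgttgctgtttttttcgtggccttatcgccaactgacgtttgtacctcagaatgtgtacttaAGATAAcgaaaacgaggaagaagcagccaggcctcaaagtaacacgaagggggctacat

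The gene fkh (FBgn0000659, 3R, 28580976 to 28585264, minus strand), which gave the forkhead protein family its name and sets the identity of the foregut, hindgut and salivary gland, had the strongest summit of the 9. Its signal value was 1714.5 (rank 28 of 7129), and it ranked 29, 25 and 62 in the replicate lists of 30000. Only 0.516% of all protein-coding genes had a summit as strong in their window. It lay 247 bp upstream of the 5' end of fkh, in a deposited interval from 28585166 to 28585876 that held a further summit 448 bp upstream (signal value 478, rank 1260). The third optimal summit lay 5417 bp upstream (signal value 291, rank 3584). All 3 were found in every replicate, which means that a summit lay within 100 bp among its 7129 strongest peaks. No other protein-coding gene reaches into the window. It held 20 summits of the pooled list, of which 3 (15.0%) were optimal. In the sequence printed for fkh, 62.7% of the bases are G or C, against a median of 45.3% over all optimal summits.

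The number of optimal summits in the window of fkh was common, with at least as many at 25.4% of all protein-coding genes. By Euclidean distance over the counts in the optimal list and the 3 replicates, 8 genes had the same counts as fkh. The 3 of them nearest in strongest signal value were gol (614), Atg8a (610) and BTBD9 (610), all far below that of fkh. Atg8a and BTBD9 are both on X with an equal strongest signal value (610.1), so their windows may share that summit.

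The gene bowl (FBgn0004893, 2L, 3771700 to 3784121, plus strand), which encodes a zinc-finger protein of the odd-skipped family, held the most summits. Its window contained 13 optimal summits, a number reached by 87 of all protein-coding genes (0.624%). The density was 4.01 per 10 kb. Counted as 1 summit per deposited interval, the bowl window held 10. Of its 26 summits in the pooled list 13 were optimal, against 23.8% of the whole pooled list. The bowl gene has 4 annotated start sites, and 11 of the 13 summits were nearer to one of them than to the start site of any other gene. These 11 lay within 8.71 kb, from 3770196 to 3778909.

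The strongest bowl summit had a signal value of 1352 (rank 63) and ranked 80, 59 and 51 in replicates 1 to 3. It lay 106 bp upstream of the second start site, in an interval of 1364 bp from 3770978 to 3772341 that holds 3 summits. The second (signal value 843, rank 290, interval 3772825 to 3773370) was intronic, 1050 bp downstream of the third start site, and is the bowl sequence printed above. It was found in replicates 1 and 2, at ranks 292 and 175, and in replicate 3 the nearest strong summit was 128 bp away, at rank 570. The third (signal value 626, rank 652) lay 11 bp upstream of the third start site and was found in replicates 2 and 3. A summit 229 bp upstream of the fourth start site had a signal value of 472 (rank 1303) and was found in every replicate. The 2 summits of the window nearest to another gene lay 165 bp upstream (signal value 431) and 169 bp downstream (211) of start sites of bark.

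The summits of bowl stood close together. Each of the 11 summits nearest to bowl was looked for in 3 replicates, which makes 33 cases, and 9 of them had no match within 100 bp. In 7 of these 9 a strong summit lay within 200 bp, and in 4 of the 7 it was also the nearest strong summit to another optimal summit of bowl, which close spacing by itself can give. Over the other summits of the 9 genes 13 of 72 cases had no match, and in 1 of these a strong summit lay within 200 bp.

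Of the other genes of the Bowl pathway, drm (FBgn0024244, 2L, 3539247 to 3548423) held 2 optimal summits, both low in the list, and lin held none. As many as at drm were held by 39.0% of all protein-coding genes, and the density at drm was 0.69 per 10 kb, against the median of 0.44 over all genes. One summit of drm lay 167 bp downstream of its first start site (3539154 to 3539673, signal value 209, rank 6086) and one past its 3' end (3548796 to 3549315, signal value 215, rank 5862). Each fell just outside the 7129 strongest peaks of 1 replicate. The first ranked 7277 in replicate 3 and the second 7562 in replicate 1. The replicate counts of 2, 5 and 1 varied more than those of any other of the 9 genes. Beside the 2 optimal summits, 8 summits of the drm window fell in the 7129 ranks just below the optimal list, the first of them at rank 7535 with a signal value of 181. The windows of grn held 15 in those ranks and the rest of the 9 genes at most 4 each. The 18 other gut genes described further on held 0 to 10 each.

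The gene lin (FBgn0002552, 2R, 8914524 to 8918234), which encodes Lines, held no summit of the optimal or the pooled list, whereas 80.8% of all protein-coding genes had a pooled summit in their window. In the permissive replicate lists its window held 1 summit in replicate 1 (rank 11487), 2 in replicate 2 (ranks 11651 and 22628) and 0 in replicate 3. The first lay 173 bp from the start site of lin and both of the others nearest to the start site of Pgi. The interval of the first (8914103 to 8914598) overlaps that of the stronger one of replicate 2 (8913927 to 8914436), so these 2 replicates list partly the same region. The lin window contains 12 other protein-coding genes, more than that of any other of the 9.

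The drm and bowl genes stand in a stretch of 2L that also holds their paralogs sob and odd. From the start of drm to the end of bowl (3539247 to 3784121, 244.9 kb) there were 22 optimal summits, of which 11 were those nearest to bowl. The 230.9 kb before them held the other 11, or 0.48 per 10 kb, against 0.53 over the 6 arms. The sob window held 2 optimal summits, 136 bp (signal value 364) and 7321 bp (404) upstream of its start site, both found in every replicate. The odd window held 1, with a signal value of 199, found in 2 replicates.

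The hindgut genes byn and cad had 1 intronic summit each, and 59.8% of all protein-coding genes held at least 1 summit. The byn gene (FBgn0011723, 3L, 11927693 to 11935919), the fly counterpart of Brachyury, had its summit 2388 bp downstream of the start site (11929821 to 11930340, signal value 275, rank 3925). It ranked 3204 in replicate 1, 3340 in replicate 2 and 8423 in replicate 3, so it was outside the strongest peaks of replicate 3. The body of byn overlaps the span of CG44837 on the opposite strand. The cad gene (FBgn0000251, 2L, 20770731 to 20783135), the fly Cdx gene, had a stronger and narrower one 10063 bp downstream of its second start site (20780842 to 20781074, signal value 415, rank 1724). It was found in every replicate, at ranks 996, 2830 and 2936. The nearest start site was that of Pomp, 6699 bp away and outside the gene. With 20 kb on either side the cad window held 5 optimal summits and that of byn again 1.

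The GATA genes differed in number and strength. The gene grn (FBgn0001138, 3R, 8147368 to 8181444, minus strand), a GATA factor known for the posterior spiracles and for motor neurons, held 9 optimal summits in a window of 54.1 kb, and 1.93% of all protein-coding genes held as many. The strongest (8181503 to 8181721, rank 667, signal value 619) lay just upstream of the grn start site, at 196 bp, and ranked 448, 1066 and 787 in the replicates. A weaker one lay 405 bp upstream (signal value 367), and an intronic one 861 bp downstream (413). A separate intronic summit lay 20829 bp downstream (8160464 to 8160697, signal value 457, rank 1399). These 4, and 1 past the 3' end, were found in every replicate, and the remaining 4 had signal values of 208 to 229 and were found in 1 or 2.

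The genes srp (FBgn0003507, 3R, 15986152 to 16004085) and GATAe (FBgn0038391, 3R, 16009105 to 16019133) lie next to each other. The srp gene specifies endoderm, blood cells and fat body, and GATAe maintains endodermal expression after it. Their windows share 3 summits, which lay between the genes, 1720, 2953 and 3852 bp upstream of GATAe, with signal values of 279, 249 and 210. The first and the last were found in every replicate, at ranks of 3896, 4393 and 4328 for the first, and the middle one ranked 8528 in replicate 3. The srp gene had another 2 summits, 2315 bp upstream of its 5' end (signal value 255) and in an intron (236). The remaining summit in the window of GATAe was the strongest there (signal value 293, rank 3541), but it lay 47 bp upstream of pnr, also a GATA gene, which is known for the dorsal ectoderm and the heart. None of the summits at srp or GATAe was among the strongest 3564 of the optimal list, apart from that one at pnr. From the start of srp to the end of pnr there were 6 optimal summits in 55.6 kb. At least as many optimal summits as in the srp window (5) were held by 10.1% of all protein-coding genes. For the window of GATAe (4) the share was 15.9%.

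**Figure D3:**
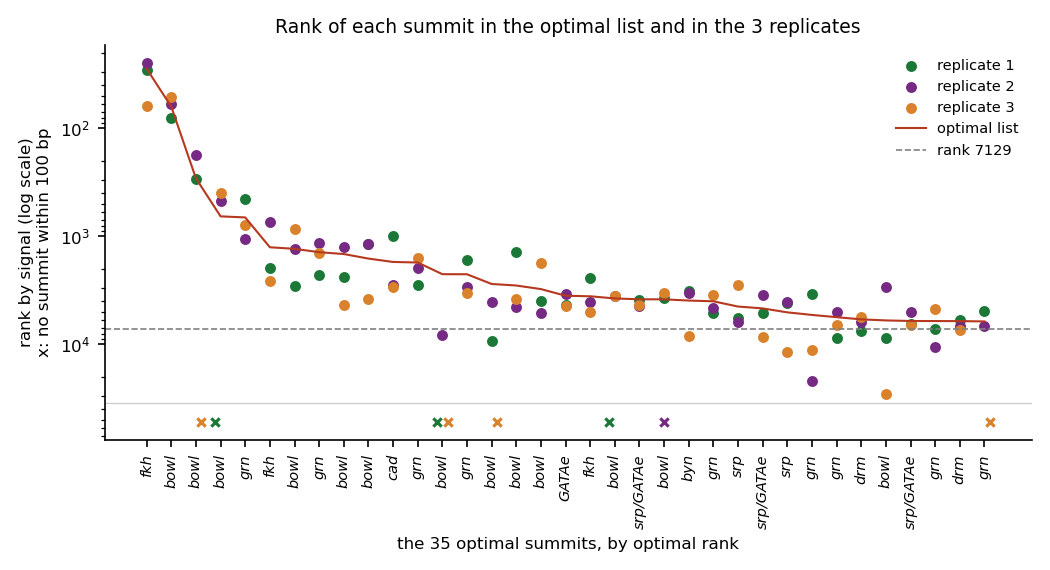
Rank by signal value, on an inverted log axis, of the 35 optimal summits of the 9 genes in the optimal list (line) and of the nearest summit within 100 bp in the list of 30000 peaks of each replicate (points), with crosses where there was none; the dashed line marks rank 7129. The strongest summits of fkh and bowl rank between 25 and 80 in every replicate, and most summits that fall below the dashed line are among the weaker optimal ones.

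Reproducibility of the 35 summits was close to that of the optimal list. Of them 19 (54.3%) were found in all 3 replicates, 11 in 2, 4 in 1 and 1 in none, and 52.1% of all optimal summits were found in all 3. Replicate 1 held 77.1% of the 35, replicate 2 88.6% and replicate 3 71.4%, against 77.5%, 81.1% and 75.1% of the whole list. The optimal list was made from these replicates, so the shares are not independent of it. Counting only optimal peaks found in both other replicates, the 35 became 23 without replicate 1, 20 without replicate 2 and 25 without replicate 3. These are 65.7%, 57.1% and 71.4% of the 35, against 61.7%, 59.7% and 65.7% of the whole list. Under the same count bowl held 8, 7 and 7 of its 13 and byn 0, 0 and 1. For drm it gave 1, 0 and 1 of 2, and for grn 6, 5 and 6 of 9. The srp window held 3, 3 and 5 of 5 and that of GATAe 3, 3 and 4 of 4. All 3 summits of fkh remained each time, as did that of cad.

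Over all 35, the shares of summits at start sites and in introns were near those of the list. Within 500 bp of a start site of a protein-coding transcript lay 13 of the 35 (37.1%), against 37.0% of the rest of the optimal list. Introns away from start sites held 13 (37.1%), against 40.7%, and intergenic sequence 9 (25.7%), against 19.9%. No summit of the 9 genes lay in a UTR or a coding exon away from a start site, where few of the rest did either, 1.04% in a 5' UTR, 0.451% in a coding exon and 0.888% in a 3' UTR. By strength the places were uneven, on few summits each. Of the 12 summits among the strongest 1783 of the list 7 (58.3%) were near a start site and 0 intergenic, against 37.6% and 20.2% of those 1783. The 12 came only from the windows of bowl, grn, fkh and cad. Several of the 7 share a deposited interval at fkh or at bowl, so they are not separate regions. Of the 10 among the 1782 just below the middle of the list 1 was near a start site and 7 were intergenic, against 668 and 356 of those 1782. For 7 of the 9 genes, all but cad and lin, at least 1 optimal summit was nearest to a start site of the gene itself, and this held for 22.0% of all protein-coding genes. Of the 35 summits 30 were of that kind. The median signal value of the 35 was 293, against 292 in the rest of the list.

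**Figure D4:**
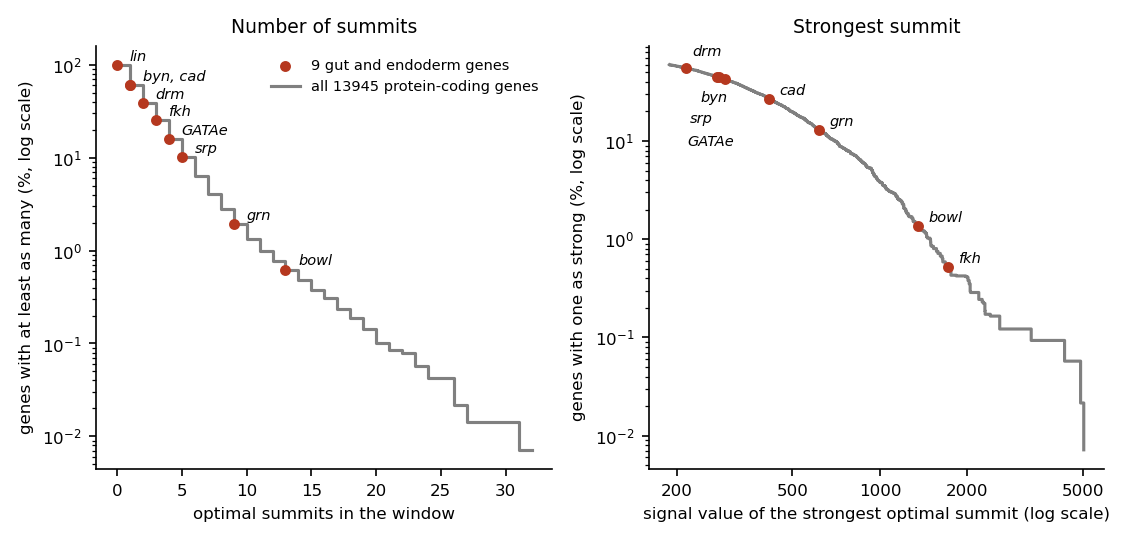
The 9 genes (red points) on the distribution of all 13945 protein-coding genes (grey line): left, the share of genes with at least as many optimal summits in their window; right, the share with a summit at least as strong, both on log axes of percent. Only bowl (0.624%) and grn (1.93%) lie below 2% in number, and only fkh (0.516%) and bowl (1.37%) in strength.

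The words searched were in few of the windows of 201 bases around the summits. AGAGCA, the core of the sequence that Knirps prefers, was in 5 of the 35 (14.3%), against 14.1% of all optimal summits. It was at the strongest summit of fkh, where it begins 16 bases past the summit in the printed sequence, at the cad summit, 49 bases past it, at 2 weaker summits of bowl and at 1 of grn. AGATAA, a form of the GATA site, was in 5 windows (10.4% of all optimal summits). It was at 4 summits of the bowl window, 1 of them nearest to bark, and at the site between srp and GATAe. TGTTTAC, a forkhead site, was in 3 (7.69% of all), at cad, between srp and GATAe and in srp. GAGAGAG, the site of the GAGA factor, was in 3 (10.3% of all). TTTATGG, a Caudal site, was in 2 (5.09% of all) and GGTGTGA, part of a T-box site, in 2 (2.05% of all). CAGTAGC, for the odd-skipped family, was in 1 (1.56% of all) and CAGGTA, for the early activator Zelda, in 1 (7.71% of all). With 150 bp on either side of the summit CAGGTA was in 6 windows (17.1%, against 10.8% of all), and with 50 bp AGAGCA was in 1 (2.86%, against 7.31% of all). The shares at 100 bp rest on 5 windows or fewer each, words may overlap one another, and a match is a description of the letters only.

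Among 18 other genes with roles in the gut, 17 had an optimal summit in their window, and bap, a homeobox gene of the visceral mesoderm, had none. Over all protein-coding genes 59.8% had one. Each of the 18 held 0 to 6. The strongest was at GATAd, another GATA gene, 46 bp upstream of a start site (2L, 10333485 to 10333979, signal value 1147, rank 112). This summit ranked 60, 119 and 211 in replicates 1 to 3. In the homeobox gene otp the strongest summit lay in a coding exon (2R, 20884423 to 20884738, signal value 945, rank 203). The forkhead gene bin, of the visceral mesoderm, had one 1304 bp upstream of its start site (signal value 608), and esg, a zinc-finger gene of gut precursors, one 214 bp upstream (557). The median of the 18 genes was 2 optimal summits and 0.77 per 10 kb.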

How the data were processed

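ChIP-seq peak lists of 3 biological replicates (1 group) were analysed. Per the deposited notes on the files, the authors called peaks with background permissively in every replicate and in the pooled replicates, and kept an optimal list thresholded on the irreproducible discovery rate, on builds dm6 and dm3. Per the labels, sonicated fragments ranged from 200 to 800 bp. No source used here names the aligner, the peak caller or their versions. The deposited signal of a peak is the authors' value on an unstated scale, and the deposited −log10 q value was not used to rank peaks. The dm3 lists were not used.

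Summits were taken as start plus offset and are given 1-based. The dm6 lists fit within the arm lengths of Release 6 in the reference. Genes came from Ensembl release 115 (2L, 2R, 3L, 3R, 4 and X, protein-coding). A summit was called found in a replicate when 1 lay within 100 bp among its strongest 7129 peaks. Words were searched in both strands of the 201 bases centred on a summit. A summit within 500 bp of a start site was placed at a promoter, and any other in a UTR, a coding exon, an intron or between genes, with exons before introns. The 3 replicates form 1 group, so values are described with their spread and no test was run. Alternatives changed the window, the list, the matching distance and the word window, and left out each replicate. Counting, matching and word search were tested on simulated data. By rule, the text names the 9 members with up to 3 of their strongest summits, the gene nearest to each, the 3 genes most like fkh in counts, and the 4 of 18 other gut genes with the strongest summits. Further summits, with sob, odd, pnr and bap, were chosen for naming once their values had been seen. The members and lists were chosen with earlier results of these data known. Python 3.11.15, pandas 2.3.3, numpy 2.4.6 and matplotlib 3.10.9 were used.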

Additional observations from a re-analysis of the deposited data

How the results depend on the processing

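The 35 optimal summits became 18 with the gene body only, where 6 of the 9 genes had a summit, against 14.7% of all genes. They also became 18 among the strongest 3564 optimal peaks, where 5 of the 9 genes had a summit, against 42.7% of all genes. The summits were 31 with 5 kb on either side, 46 with 20 kb and 31 with 1 summit per deposited interval. Among optimal peaks found in both other replicates, leaving out each replicate in turn gave 20 to 25 summits and 6 to 8 genes, and 48.2%, 48.2% and 50.7% of all genes without replicates 1, 2 and 3. This count requires a match in 2 replicates, so by its construction it keeps fewer. Of the 35, the summits found in all replicates used were 19, with 50 bp for the match 12 (34.3%, against 31.7% of the whole list), with 200 bp 23 (65.7%, against 64.3%), and 20 to 25 when a replicate was left out. Matched to all peaks of each replicate list, 28 of the 35 were found in every replicate (80.0%, against 82.8% of the whole list). Of the values of single genes and words, 33 moved by over 1.5 times under an alternative and 64 did not. No paired analysis was possible because all samples belong to 1 group. Depth is unknown, so a missing summit is not shown to be absent binding.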
